A study of Homo sapiens with 2 samples.

Results

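The genes described here encode the 6 subunits of shelterin and 4 protein components of telomerase. They were taken by gene name from both expression tables, and all 10 were found among 21225 genes. The set was chosen by a measured value as well, the difference of TERF2IP between these same 2 libraries, which was known beforehand to be among the largest increases, so the values below describe the set and carry no test. Huh7 cells, which come from a human hepatoma, had been given either a control shRNA or an shRNA against E2F6, and RNA-seq was run on 1 library of each. E2F6 is a repressor of the E2F family that acts in part within a polycomb complex. Nothing in the labels gives the shRNA sequence, the delivery vector, the time of harvest or whether a clone was used.

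Shelterin coats the TTAGGG repeats at chromosome ends and keeps them from being read as DNA breaks. TRF1 (TERF1) and TRF2 (TERF2) bind the double-stranded repeat, RAP1 (TERF2IP) binds TRF2, TIN2 (TINF2) bridges TRF1 and TRF2, and TPP1 (ACD) joins TIN2 to POT1, which binds the single-stranded overhang. Telomerase adds repeats with its reverse transcriptase TERT and an RNA template, and the RNA is held by dyskerin (DKC1), NHP2, NOP10 and GAR1, which also form the core of H/ACA small nucleolar ribonucleoproteins. TERT is silent in most adult tissues and active in most cancers, hepatoma included.

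The values are FPKM, fragments per kilobase of transcript scaled to the library total, so levels can be compared between genes within a library. A difference is log2(FPKM + 1) after E2F6 shRNA minus log2(FPKM + 1) after control shRNA, and a ratio is of the FPKM values themselves, with the control value given first throughout. The rule of size called a gene where that difference reached 1 in either direction and the mean of both libraries reached 1 FPKM. With 1 library in each group there is no spread between replicates and no p-value, and in bulk RNA fewer expressing cells and less RNA in each cell cannot be told apart. The intervals are 95% exact binomial intervals of the ratio from estimated fragments and cover counting error only.

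E2F6 itself was at 2.54 and 0.997 FPKM, which is 39.3% of the control (ratio 0.393, 0.258 to 0.593). Its difference of -0.82 was not past the rule of size. The steps between low values imply library totals of 17139216 for the control shRNA and 14724844 for the E2F6 shRNA. All 10 hepatoma markers were at a mean of 1 FPKM or more, with AFP at 1721 and 1064 FPKM. The rule called 3 of them, ALB and APOB lower and HNF4A higher. The shares over all 11574 genes tested were 1.17% higher and 2.06% lower. With a trend in GC content removed ALB was at -0.84, no longer past the rule, while APOB and HNF4A were still past it. Among markers of other cell types, 3 of 6 for fibroblasts, 2 of 6 for leukocytes and 1 of 4 for endothelial cells were at a mean of 1 FPKM or more and none was called. Their summed levels were 39.6 and 60.6 FPKM, 250 and 141 FPKM, and 1.53 and 2.83 FPKM. Of the 6 leukocyte markers 3 were listed at all, and LYZ alone was at 240 and 133 FPKM. The part of these other cell types in the results below was not tested.

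The promoters of 8 of the 10 genes were matched by symbol in RefSeq, build GRCh38.p14, each from 250 bases before to 50 bases after the start of transcription. TERF1 and TERF2 were not matched. The 3 shown are those of TERF2IP, the gene that was called, and those of ACD and NOP10, as examples of the motifs found. The complex of E2F6 can reach DNA through an E2F site, searched here as TTCCCGC and TTGGCGC, or through the E-box CACGTG bound by its MGA and MAX subunits. The GC box GGGCGG, bound by SP1, was searched as well, each motif on both strands. Capitals mark the matches.
TERF2IP, chr16:75647523-75647822, plus strand: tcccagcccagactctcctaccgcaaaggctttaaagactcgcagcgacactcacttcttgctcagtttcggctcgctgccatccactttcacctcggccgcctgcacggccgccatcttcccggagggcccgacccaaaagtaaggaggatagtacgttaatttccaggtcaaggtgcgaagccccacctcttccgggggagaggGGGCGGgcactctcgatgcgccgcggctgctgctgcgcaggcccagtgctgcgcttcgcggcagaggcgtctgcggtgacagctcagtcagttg
ACD, chr16:67660211-67660510, minus strand: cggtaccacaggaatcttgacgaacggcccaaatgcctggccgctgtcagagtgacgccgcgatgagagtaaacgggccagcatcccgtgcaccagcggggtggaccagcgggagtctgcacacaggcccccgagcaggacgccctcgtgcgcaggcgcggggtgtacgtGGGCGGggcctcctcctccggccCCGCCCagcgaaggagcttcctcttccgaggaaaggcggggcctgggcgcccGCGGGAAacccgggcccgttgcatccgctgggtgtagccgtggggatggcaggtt
NOP10, chr15:34343087-34343386, minus strand: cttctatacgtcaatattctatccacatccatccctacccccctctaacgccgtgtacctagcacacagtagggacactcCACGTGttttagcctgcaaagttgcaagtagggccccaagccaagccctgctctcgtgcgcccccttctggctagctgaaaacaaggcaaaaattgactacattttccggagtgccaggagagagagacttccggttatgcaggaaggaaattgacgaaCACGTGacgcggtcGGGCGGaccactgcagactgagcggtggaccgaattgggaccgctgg

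An E2F motif stood in 1 of the 8 promoters, that of ACD, where TTCCCGC lies on the opposite strand across the start, from base -5 to base 2. Either E2F motif is found in 9.22% of 34943 RefSeq promoters. CACGTG stood in 2 of the 8, at base -163 of TERT and at bases -170 and -11 of NOP10, against 7.23% of all promoters. The GC box stood in all 8, against 44.9% of all promoters, with 5 matches in NHP2, 4 in DKC1 and 1 in TERF2IP, at base -44. In the TERF2IP window neither E2F motif and no CACGTG was found, which says only that these letters are not in these bases. The start of KARS, the lysyl-tRNA synthetase gene, lies on the opposite strand 108 bases from that of TERF2IP, so that both genes leave this window in opposite directions.

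Of the 9 genes at a mean of at least 1 FPKM, 1 was higher by the rule of size, 0 were lower and 8 were not past it. TERF1, TINF2 and TERT, at 1.62, 1.09 and 1.36 FPKM in the control, could not have been called lower. A fall of that size would take their mean below 1 FPKM. Over all 11574 genes tested, 1.17% were higher and 2.06% were lower. The gene that was higher is TERF2IP. It was also the one gene called, and none was lower, with a pseudocount of 0.1 (2.32% of all genes higher, 4.51% lower). The same held with a trend in GC content removed (0.97% and 1.43% of 9900 genes) and with a 1.5-fold threshold (5.05% and 9.33%). That threshold was set on FPKM + 1, where TERF2 fell short although its ratio of the FPKM values themselves was 1.53. Because of the minimum of 1 FPKM, TINF2 and TERT could not have been called lower in these alternatives either. POT1, at a mean of 0.669 FPKM, was the gene below the minimum. The median difference of the 9 was 0.11, against 0.00 over all genes tested, and 5 of the 9 had differences above 0.

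**Figure D1:**
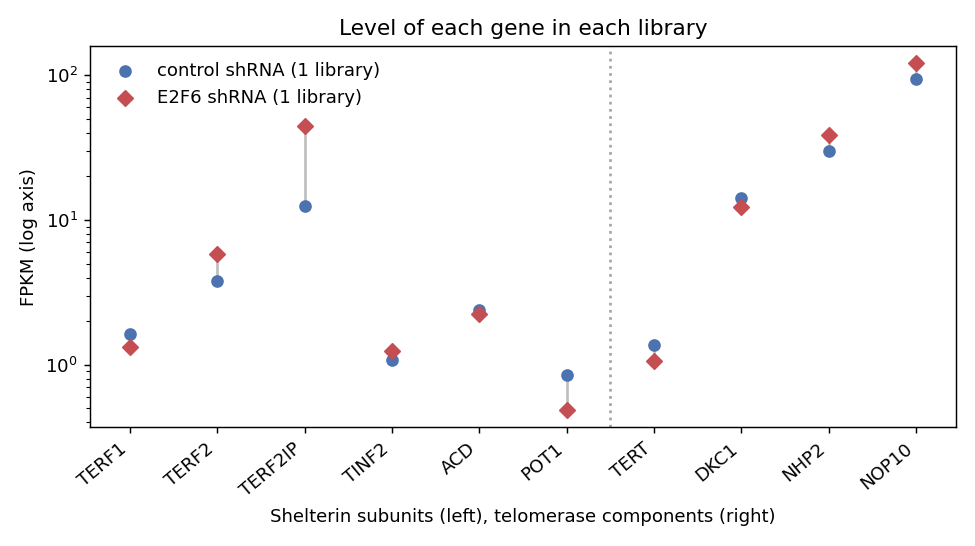
FPKM of the 10 genes on a log axis in the control shRNA library (circles) and the E2F6 shRNA library (diamonds), 1 library each, with shelterin subunits left of the dotted line and telomerase components right of it. TERF2IP moves from 12.5 to 44.4 FPKM, while the other 9 symbol pairs lie close together relative to the range from below 1 to above 100 FPKM.

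TERF2IP encodes RAP1, which is carried to telomeres by TRF2 and also acts outside them, among others as a partner of the IkB kinases. Its level was 12.5 FPKM with the control shRNA and 44.4 FPKM with the E2F6 shRNA. The difference was 1.75 and the ratio 3.54 (3.10 to 4.06), from an estimated 288 and 877 fragments. This was the 29th largest increase of 11574 genes. The level stood above 76.5% of the genes tested in the control and above 93.3% in the E2F6 shRNA library.

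Of the exon bases of TERF2IP in GENCODE release 29, 5.21% are shared with KARS on the other strand, where the reads of both genes could be confused. Whether reads were assigned by strand is not given in the sources used here. KARS was at 41.6 and 49.1 FPKM, a ratio of 1.18 (1.07 to 1.304), so the gene on the other side of the shared promoter window was not past the rule. No pseudogene named after TERF2IP was annotated.

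TERF2 encodes TRF2, which folds the chromosome end into a loop and suppresses end joining. It was at 3.80 and 5.82 FPKM, with a difference of 0.51 that is short of the rule. The ratio was 1.53 (1.09 to 2.14) from 65 and 85 estimated fragments. That interval rests on the mean length of its annotated transcripts, and with the shortest transcript, which would mean fewer fragments, it includes 1 (0.815 to 2.78). RP11-343C2.9, which shares 1.74% of the exon bases of TERF2 on the same strand, had 19 and 1 estimated fragments. Whether reads were divided differently between these genes in the 2 libraries was not tested. The FPKM of TERF2IP was 3.30 times that of its partner TERF2 in the control and 7.63 times in the E2F6 shRNA library.

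TERF1 encodes TRF1, the other double-strand binder, which limits lengthening by telomerase and helps forks pass through the repeat. It was at 1.62 and 1.31 FPKM, a ratio of 0.811 (0.506 to 1.28). There are 5 processed pseudogenes named after TERF1, of which the 3 in the tables were at or below 0.471 FPKM in each library. Some of its reads may be divided with them, and how many was not measured. TERF2 exceeded TERF1 in both libraries, 2.35 times in the control and 4.43 times in the E2F6 shRNA library.

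TINF2, the bridge of the complex and a gene mutated in dyskeratosis congenita, was at 1.09 and 1.25 FPKM. Its ratio of 1.15 had an interval from 0.605 to 2.24, from 21 estimated fragments in each library. ACD encodes TPP1, which recruits telomerase through a surface patch. It was at 2.41 and 2.23 FPKM, a ratio of 0.926 (0.600 to 1.41), and it is the gene whose promoter above holds an E2F motif. A decrease of 1.5-fold lies within both intervals and could not be told from no change at this depth.

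POT1 shields the single-stranded overhang. It was the lowest of the 10 genes in both libraries, at 0.852 and 0.487 FPKM. From 17 and 8 estimated fragments the ratio of 0.571 had an interval of 0.205 to 1.34, which includes 1. With the longest annotated transcript, which gives 60 and 29 fragments, the interval was 0.348 to 0.890. The antisense gene POT1-AS1 shares 1.88% of its exon bases and was at 0.0818 and 0.0159 FPKM.

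The summed level of the 6 shelterin genes was 22.3 FPKM with the control shRNA and 55.5 FPKM with the E2F6 shRNA. Without TERF2IP the sums were 9.77 and 11.1 FPKM. TERF2IP made up 56.2% of the sum in the control and 80.0% in the E2F6 shRNA library. The shares of the others were 17.0% and 10.5% for TERF2, 10.8% and 4.01% for ACD, 7.27% and 2.37% for TERF1, 4.87% and 2.26% for TINF2, and 3.82% and 0.877% for POT1.

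**Figure D2:**
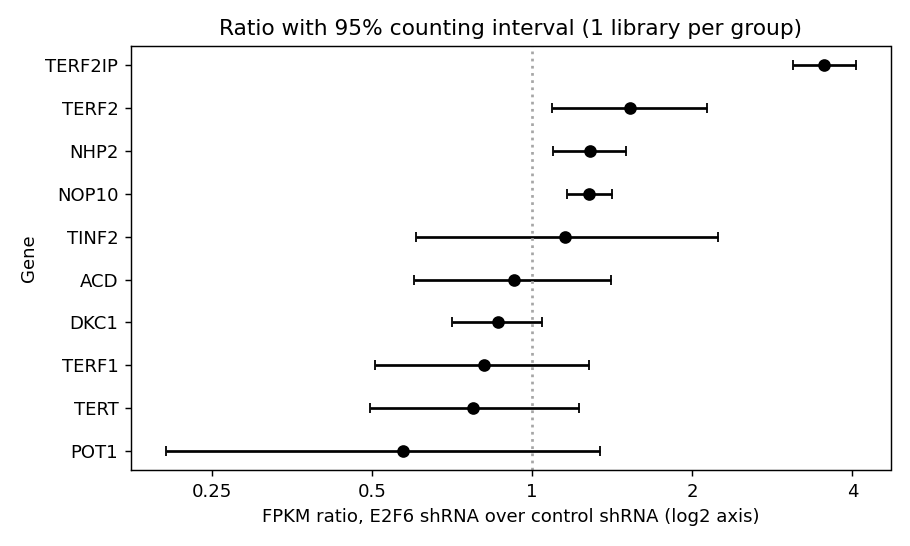
FPKM ratio of the E2F6 shRNA library over the control shRNA library for each of the 10 genes (points, log2 axis), with 95% counting intervals from estimated fragments as bars and the dotted line at 1. TERF2IP stands alone at 3.54, while TERF2, NHP2 and NOP10 lie above 1 with intervals that leave it out and the other 6 intervals include 1.

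TERT, the catalytic subunit, was listed in both libraries at a low level, 1.36 FPKM with the control shRNA and 1.06 FPKM with the E2F6 shRNA. The ratio was 0.773 (0.495 to 1.23) from 52 and 35 estimated fragments. Its level stood above 8.28% of the genes tested in the control and above 4.46% in the E2F6 shRNA library. TERC, the template RNA, was at 0.216 FPKM in the control, worth 2 fragments, and listed at 0 in the E2F6 shRNA library. There a count of 0 allows up to 0.377 FPKM. How RNA was selected for the libraries is not stated here, and whether TERC was captured was not tested. These values therefore do not measure its amount in the cells.

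DKC1 encodes dyskerin, the pseudouridine synthase that holds the telomerase RNA. It was at 14.3 and 12.3 FPKM, a ratio of 0.863 (0.708 to 1.04). With its longest annotated transcript, which would mean more fragments, the interval leaves out 1 (0.773 to 0.965). NHP2 was at 29.9 and 38.5 FPKM, a ratio of 1.29 (1.10 to 1.505), and NOP10 at 94.6 and 121 FPKM, a ratio of 1.28 (1.16 to 1.41). NHP2 and NOP10, both small proteins of the same particle, thus had ratios near each other and above 1, neither past the rule, while the ratio of DKC1 was below 1.

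The FPKM of NOP10 was 3.16 times that of NHP2 in the control and 3.15 times in the E2F6 shRNA library. NHP2 was 2.10 and 3.13 times as high as DKC1. GAR1, the other protein of the particle, was at 16.9 and 19.9 FPKM, which is 1.18 and 1.62 times DKC1. For NHP2, 27.4% of the exon bases are shared with RMND5B on the other strand, at 2.10 and 2.08 FPKM, and the processed pseudogene NHP2P1 was at 8.59 and 9.85 FPKM, so its level is uncertain by the reads that may be divided with them.

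In the control the order of levels was NOP10, NHP2, DKC1, TERF2IP, TERF2, ACD, TERF1, TERT, TINF2 and POT1. DKC1 and TERF2IP were within counting error of each other there (ratio 1.14, 0.957 to 1.35), as was each neighbour in the order from ACD down to POT1. In the E2F6 shRNA library TERF2IP moved from the fourth place to the second, above NHP2 by a ratio of 1.15 (1.02 to 1.31) and below NOP10. TINF2 and TERT changed places, and their levels were within counting error of each other in both libraries. NOP10, the highest, exceeded the next gene 3.16 times in the control and 2.73 times in the E2F6 shRNA library.

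The difference between the libraries goes with the GC content of the transcripts over all genes. Over 9900 protein-coding genes the Spearman correlation between difference and GC content was 0.463, taken across genes, which are not independent replicates. Of 10 equal bins by GC content, the lowest had a median difference of -0.39 and the highest one of 0.15. TERF2IP transcripts have a mean GC content of 50.1%, and 728 genes within 1 percentage point of that had a median difference of 0.07, with quartiles at -0.13 and 0.26. TERF1, at a GC content of 40.2%, had a difference of -0.18 where genes of like GC content had a median of -0.34. TERT, at 66.7%, had -0.20 where they had 0.09, and ACD, at 63.4%, had -0.08 where they had 0.17.

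With the GC trend removed the difference of TERF2IP was 1.67, still past the rule. That of TERF1 became 0.16, that of TINF2 -0.04 and that of POT1 0.14, so the sign of these 3 small differences depends on the correction. TERF2 was at 0.46, NOP10 at 0.38 and NHP2 at 0.20 after it, and TERT at -0.34, ACD at -0.23 and DKC1 at -0.22.

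**Figure D3:**
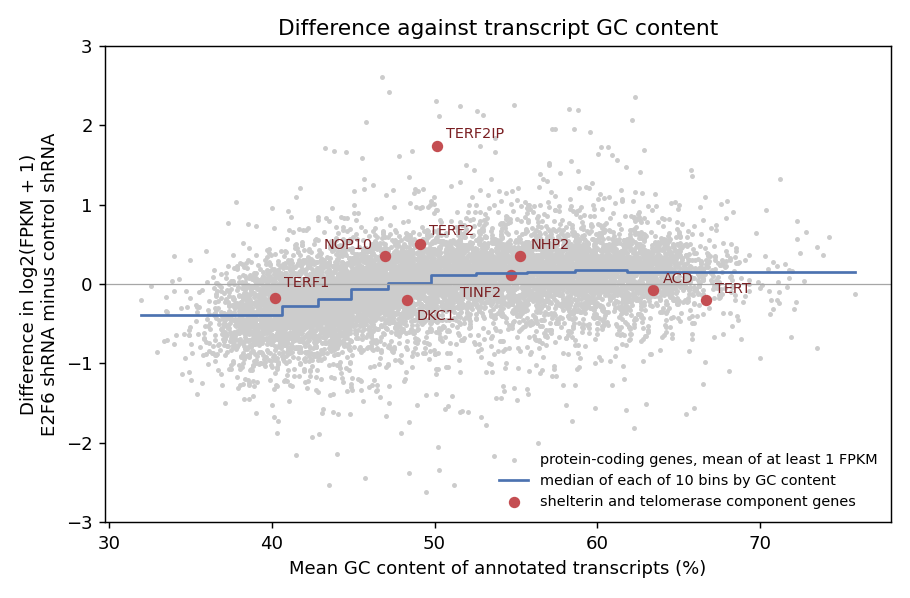
Difference in log2(FPKM + 1) between the libraries (vertical axis) against the mean GC content of the annotated transcripts in percent (horizontal axis), for 9900 protein-coding genes (grey points) with the median of each of 10 equal bins (line) and the 9 shelterin and telomerase component genes at a mean of at least 1 FPKM (large points). TERF2IP, at 1.75, lies far above the genes of like GC content, which have a median of 0.07.

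The nearest protein-coding gene on each side of the 10 genes gave 20 neighbours in GENCODE release 29, of which 13 were in the tables and 6 at a mean of at least 1 FPKM. None of the 6 was higher and 1 was lower, against 1.17% higher and 2.06% lower over all genes tested. The lower one was RP11-343C2.9 beside TERF2, at 1.97 and 0.120 FPKM, worth 19 and 1 estimated fragments. It reached the minimum of 1 FPKM through its control value alone. It overlaps TERF2 on the same strand over 1.74% of the exon bases of TERF2. Of the others, CLPTM1L beside TERT was at 9.70 and 9.50 FPKM, CYB5B beside TERF2 at 12.1 and 9.54 FPKM, and GMPR2 beside TINF2 at 3.03 and 2.98 FPKM.

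Of 5199 other protein-coding genes at a mean of at least 5 FPKM, the 3 whose difference was nearest to that of TERF2IP over these 2 libraries were ANKRD1 at 1.72, FLNC at 1.69 and MT1E at 1.67. None of them is in the telomere lists used here, and likeness over 2 libraries is 1 number per gene.

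The 7 other lists of telomere biology held 106 genes in the tables, of which 94 were at a mean of at least 1 FPKM. None of the 94 was higher and 3 were lower, which is 3.19% against 2.06% of all genes tested. Their median difference was -0.06, with 40 above 0 and 54 below.

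**Figure D4:**
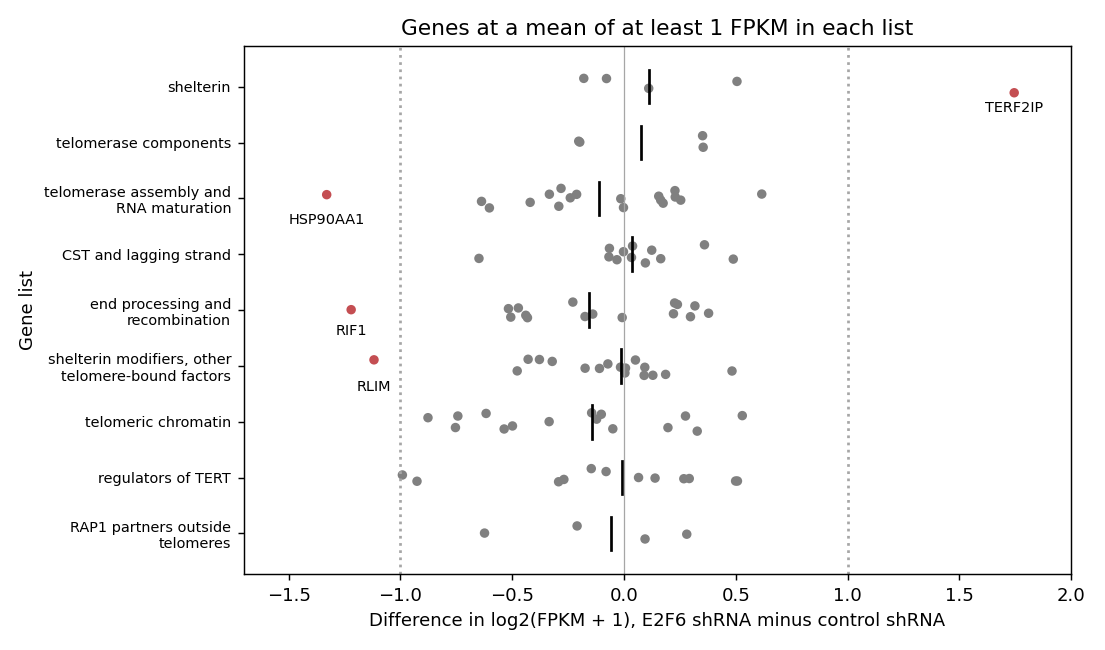
Difference in log2(FPKM + 1), E2F6 shRNA minus control shRNA, of each gene at a mean of at least 1 FPKM in the 9 lists (points), with the median of each list (black bars) and the rule of size at -1 and 1 (dotted lines). TERF2IP is the only point beyond 1, and HSP90AA1, RIF1 and RLIM lie beyond -1.

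Among 18 genes of telomerase assembly, trafficking and RNA maturation, 1 was lower and 17 were not past the rule, with a median of -0.11. With the GC trend removed this median was 0.02. The lower one was HSP90AA1, the chaperone that with p23 loads TERT onto its RNA, at 129 and 50.7 FPKM (ratio 0.393, 0.365 to 0.424). It serves many other client proteins.

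None of 12 genes of the CST complex and of lagging strand synthesis passed the rule (median 0.04, or 0.20 with the GC trend removed). CST brings polymerase alpha to the overhang for fill-in. POLA1, the catalytic subunit of that polymerase, was lowest at 8.77 and 5.23 FPKM, followed by DNA2 at 5.42 and 5.13 FPKM. The interval of DNA2 includes 1 (ratio 0.946, 0.765 to 1.18). With the GC trend removed POLA1 was at -0.40, while DNA2 changed sign from -0.07 to 0.32. RPA2, of the single-strand binder RPA, was highest at 37.9 and 53.5 FPKM, followed by OBFC1, the STN1 subunit of CST, at 2.77 and 3.84 FPKM.

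Of 16 genes of end processing and recombination 1 was lower and 15 were not past the rule (median -0.16). Their median was 0.06 with the GC trend removed. RIF1, found at telomeres in yeast and at unprotected ends and breaks in human cells, was at 4.01 and 1.15 FPKM (ratio 0.287, 0.222 to 0.368). Its difference was -1.22, and -0.82 with the GC trend removed, no longer past the rule.

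Of 17 shelterin modifiers and other telomere-bound factors 1 was lower and 16 were not past the rule (median -0.02). Their median was -0.09 with the GC trend removed. RLIM, a ubiquitin ligase that acts on TRF1, was at 3.17 and 0.924 FPKM (ratio 0.291, 0.224 to 0.372). Its difference was -1.12, and -0.78 with the GC trend removed, no longer past the rule.

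None of 15 genes of telomeric chromatin passed the rule (median -0.14, or -0.06 with the GC trend removed). The lowest were SUV39H1, a histone H3 lysine methyltransferase, at 11.5 and 5.79 FPKM, and ATRX, the remodeller that deposits histone H3.3 at telomeres and whose loss goes with telomerase-independent lengthening, at 1.87 and 0.702 FPKM. With the GC trend removed SUV39H1 was past the rule at -1.04, while ATRX was at -0.36. The highest were the histone chaperone ASF1B at 12.6 and 18.6 FPKM and SIRT6 at 1.78 and 2.49 FPKM.

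None of 12 regulators of TERT transcription passed the rule (median -0.01, or -0.10 with the GC trend removed). GABPA, an ETS factor, was closest to it at 4.65 and 1.84 FPKM with a difference of -0.99, followed by SP3 at 7.65 and 3.55 FPKM. They came to -0.62 and -0.70 with the GC trend removed. ETS2 at 28.5 and 41.0 FPKM and E2F1 at 48.2 and 68.6 FPKM were highest. None of 4 genes of the RAP1 partners outside telomeres passed it either (median -0.06, or -0.09 with the GC trend removed). The kinase gene CHUK was at 6.89 and 4.12 FPKM, its regulatory partner IKBKG at 1.95 and 1.55 FPKM, and the NF-kB subunit genes NFKB1 and RELA at 6.99 and 7.53 FPKM and at 2.32 and 3.03 FPKM.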

How the data were processed

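The authors deposited 1 gene table per library. Per the file headers a table names only its sample, so the unit was read from the values and from StringTie, and the deposited values are taken as FPKM. Per the submitters' processing notes the tools were HISAT2 2.0.4 and StringTie 1.3.0 with build GRCh37. Their settings, the annotation and strand handling are not given in the sources used here. Of 21227 rows, 2 without a gene value were dropped. For genes with 1 transcript in GENCODE release 29 (GRCh38, used for lengths, GC content and overlaps only), FPKM times length was within 0.01 of whole multiples of 1 step in 97.8% of 5455 and 97.6% of 5165 values, which gave the totals. Fragments were estimated with the mean transcript length, which is approximate for genes with several transcripts, 72.1% of annotated genes. All 10 genes, E2F6, the nearest neighbours, the 3 nearest differences and, per list, the genes past the rule (or, with none, the 2 highest and 2 lowest) are named; the rest were chosen after their values were seen. Members and lists were chosen with earlier results of these data known. Alternatives were a pseudocount of 0.1, no minimum or 5 FPKM, centring, quantile normalization and a TMM factor. Others were a 1.5-fold threshold on FPKM + 1, a lowess GC correction (span 0.3) and protein-coding genes alone. The steps were tested on simulated data with Poisson counts. There the counting interval was checked for genes with 1 transcript only, while each of the 10 genes has more than 1. The work used scipy 1.17.1, numpy 2.4.6, statsmodels 0.14.6, pandas 2.3.3 and matplotlib 3.10.9 under Python 3.11.15.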

Additional observations from a re-analysis of the deposited data

How the results depend on the processing

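TERF2IP was past the rule of size in all 9 alternatives, with differences from 1.67 to 1.82. No other of the 10 genes was past it in any of them. For TERF2IP the call could not change with no minimum, a minimum of 5 FPKM, the 1.5-fold threshold or protein-coding genes alone. These leave its difference at 1.75. The median of the 9 genes, 0.11, was 0.19 with a pseudocount of 0.1, 0.18 with quantile normalization, 0.13 with the TMM factor, 0.16 with the GC correction, 0.35 at a minimum of 5 FPKM, where 4 genes were left, and 0.016 with no minimum, where POT1 joined. The 3 lower genes of the other telomere lists became 6 with a pseudocount of 0.1, where 4.51% of all genes were lower. With the GC correction they became 2, where 1.43% of 9900 protein-coding genes were lower. There RIF1 and RLIM were no longer past the rule and SUV39H1 was. At a minimum of 5 FPKM 1 of 53 was lower, and the share over all genes was not taken. At the 1.5-fold threshold 13 were lower and 1 higher, where 9.33% of all genes were lower and 5.05% higher. The median of those lists, -0.06, was -0.066 with a pseudocount of 0.1, -0.036 with no minimum, -0.015 at a minimum of 5 FPKM, -0.018 with quantile normalization, -0.024 with the TMM factor and -0.022 with the GC correction. The causes of these shifts were not tested. Chosen after the data were seen, the longest transcript length left 6 counting intervals without 1 and the shortest 3, against 4. No count model was run on these FPKM values. No paired analysis was possible because there is 1 library per group. Depth limits POT1, TINF2, TERF1, TERT and ACD most.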
